A study of Homo sapiens with 4 samples.

Results

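FOXK2 binding was examined at 10 genes of the pyruvate dehydrogenase (PDH) complex and its regulators in OVCAR5, an established ovarian cancer cell line labelled high grade serous. Chromatin of OVCAR5 cells, for which the labels give no treatment, was immunoprecipitated with an anti-FOXK2 antibody in 2 biological replicates, each with its own peak list, while the 2 input samples came without a peak list and were not used. The members were the rows of either list whose nearest gene was PDK1, PDK2, PDK4, PDP1, PDP2, PDPR, PDHB, PDHX, DLAT or DLD. These rows numbered 12 of 12471 peaks in replicate 1 and 27 of 27281 peaks in replicate 2. Because all cells were of 1 line in 1 condition, the data give occupancy in that state, and no comparison between conditions was possible.

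The PDH complex sits in the mitochondrial matrix and turns pyruvate into acetyl-CoA, which links glycolysis to the TCA cycle. Pyruvate dehydrogenase kinases (PDKs) switch the complex off by phosphorylating its E1 component, and the phosphatases PDP1 and PDP2 switch it on again. Cancer cells often carry high kinase activity, which favors lactate over mitochondrial oxidation of pyruvate. FOXK2 is a forkhead transcription factor whose preferred site reads TGTTTAC, and it has been linked to the control of glycolysis.

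The strongest peaks of PDK2 and PDK4 carried the exact site TGTTTAC, so their sequences are shown first. The strongest peak of PDK1 did not. The lines give the replicate 1 peaks on the plus strand of hg38 with the heptamer in capitals, for the peak inside PDK2 at chr17:50101393-50101603 and the peak before PDK4 at chr7:95596771-95596981. Neither run overlapped an annotated UTR. The PDK2 run overlapped no annotated exon, while the PDK4 run overlapped 6 exon entries of GENCODE, all of the lncRNA PDK4-AS1, and its heptamer lay outside them.
PDK2 intron peak: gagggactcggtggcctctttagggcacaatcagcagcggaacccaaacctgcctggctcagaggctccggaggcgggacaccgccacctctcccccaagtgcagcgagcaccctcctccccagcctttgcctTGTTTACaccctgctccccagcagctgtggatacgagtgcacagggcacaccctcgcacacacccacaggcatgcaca
PDK4 promoter peak: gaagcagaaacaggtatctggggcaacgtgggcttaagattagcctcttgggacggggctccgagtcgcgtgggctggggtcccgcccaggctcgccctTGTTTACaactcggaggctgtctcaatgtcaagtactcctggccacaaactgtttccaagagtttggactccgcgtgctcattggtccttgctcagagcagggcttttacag

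Within other shared peaks of the kinase genes, windows of 41 bases are centred on a heptamer, not on the centre of the peak. The heptamer is again in capitals, on the strand where it reads as written. At PDK1 +84581 bp (chr2:172640509-172640549, plus strand) the heptamer was exact. At PDK2 -91 bp (chr17:50095243-50095283, plus strand) and PDK1 +604 bp (chr2:172556516-172556556, minus strand) it was a weaker heptamer of the forkhead core. At PDK4 -12294 bp (chr7:95608876-95608916, minus strand) it was the variant TGTTGAC, which lies outside the forkhead core. A core heptamer was in 57.9% of all replicate 1 peaks and 56.9% of all replicate 2 peaks.
PDK1 +84581 bp: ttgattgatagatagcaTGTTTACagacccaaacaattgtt
PDK2 -91 bp: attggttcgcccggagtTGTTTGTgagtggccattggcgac
PDK1 +604 bp: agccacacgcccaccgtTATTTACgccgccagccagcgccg
PDK4 -12294 bp: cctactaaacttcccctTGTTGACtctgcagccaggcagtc

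Of the 10 genes, 6 had a FOXK2 peak in both replicates (PDK1, PDK2, PDK4, PDP1, PDPR and DLAT). A further 3 (PDHB, PDHX and DLD) had peaks only in replicate 2, and PDP2 had none. Among all 20056 protein-coding genes, 28.6% had a peak in both replicates. That share lay inside the exact binomial interval for the 6 of 10 genes, 26.2% to 87.8%. The 10 genes had been listed with peak calls known, and the other genes of the system, PDHA1, PDHA2 and PDK3, had no peak in either list, which makes it 6 of 13 genes. A peak within 1 kb of the gene's own TSS in both replicates was found for PDK1, PDK2, PDK4 and PDPR. That was 4 of 10 genes, or 4 of 13 with PDHA1, PDHA2 and PDK3, against 11.5% of protein-coding genes. All 3 kinase genes among the 10 had such a peak, while the kinase gene PDK3 had none. None of the 4 genes for complex subunits among the 10 had one.

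Peak strength was read in tags. The low scores rose in equal steps, of 0.1886 in replicate 1 and 0.1487 in replicate 2, and a step was taken as 1 tag. On that scale the weakest peak held 16 and 21 tags, the median peak 31 and 49 tags, and the strongest 998 and 2608 tags. Intervals given with tags are exact Poisson intervals at 95% and cover counting error only. Because the lists differ in length and scale, peaks were compared by rank and score percentile within their own list, where a percentile near 100 marks the strongest peaks.

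**Figure D1:**
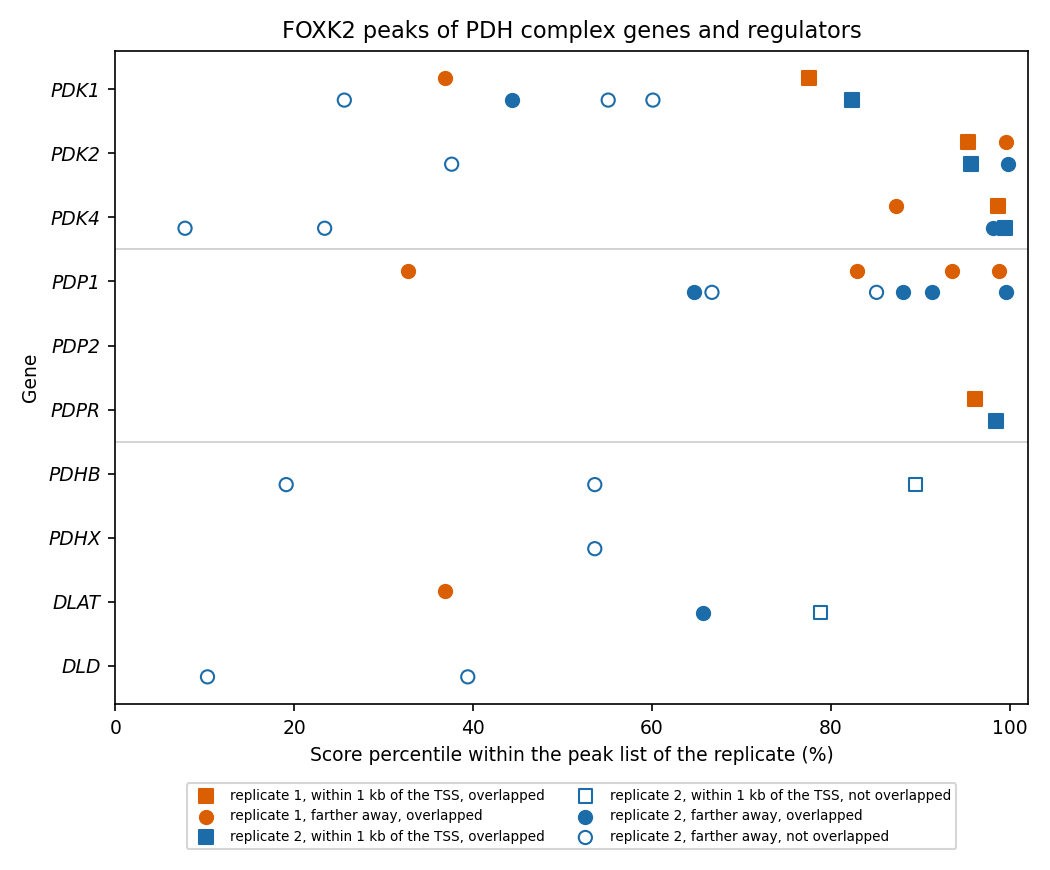
Score percentile of every FOXK2 peak assigned to the 10 genes, within the list of its replicate; squares lie within 1 kb of the TSS, circles farther away, and open symbols had no overlapping peak in the other replicate. PDK2, PDK4, PDP1 and PDPR each reached a percentile of at least 96.1 in both replicates, while peaks of PDHB, PDHX, DLAT and DLD stayed at 89.5 or below.

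PDK2, a kinase found in most tissues, had the best-ranked peak of the group. The gene spans chr17:50094737-50112152 on the plus strand. It lay in the second intron of the gene, at +5803 bp from the TSS in replicate 1 and +5836 bp in replicate 2, and held 193 tags (167 to 222) in replicate 1 and 461 tags (420 to 505) in replicate 2. These values ranked 49 of 12471 peaks and 58 of 27281 peaks, and the peaks shared 201 bp. The replicate 2 peak covered chr17:50101403-50101659. The start of an antisense lncRNA annotated by GENCODE lay 422 bp and 389 bp from the peak centres. The exact TGTTTAC shown above was 31 bp from the centre in replicate 1 and 2 bp from it in replicate 2.

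The PDK2 promoter carried a separate, weaker peak, at -75 bp (chr17:50095095-50095305) with 80 tags (63.4 to 99.6) in replicate 1 and at -91 bp (chr17:50095056-50095312) with 149 tags (126 to 175) in replicate 2. It ranked 583 and 1183, below the intron peak in both replicates. Its window was GC-rich (68.2% and 67.7% GC) and held no exact heptamer, but the related TGTTTGT 63 bp and 79 bp from the centres. A peak at -14749 bp, called in replicate 2 with 41 tags (29.4 to 55.6), lay inside ITGA3, an integrin gene, 329 bp from an ITGA3 transcript start. It had no counterpart in replicate 1.

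PDK4 encodes the kinase best known for induction by fasting and fatty acids, and lies on the minus strand at chr7:95583499-95596516. Its promoter peak lay at -263 bp in replicate 1 with 131 tags (110 to 155) and at -243 bp in replicate 2 with 338 tags (303 to 376). The ranks were 156 and 145, and the focus ratios were 0.925 and 0.89 against list medians of 0.758 and 0.755. The focus ratio is the fraction of tags on the expected side of the peak centre. The exact TGTTTAC lay 3 bp and 17 bp from the centres. GENCODE has a start of PDK4-AS1 170 bp and 150 bp from the centres as well.

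Farther upstream of PDK4, a second shared peak at -12319 bp (chr7:95608827-95609037) and -12294 bp (chr7:95608779-95609035) differed in strength between the replicates. It held 56 tags (42.3 to 72.7) in replicate 1, rank 1588, and 205 tags (178 to 235) in replicate 2, rank 516. The tag ratio of replicate 2 to replicate 1 was 3.66, above 98.9% of the 9343 shared pairs, whose median ratio was 2.19. Its centre lay 42 bp and 17 bp from a GENCODE start of PDK4-AS1, a lncRNA that runs antisense to PDK4, and held TGTTGAC in place of the exact heptamer. Peaks at +46341 bp and +51180 bp were weak (27 and 34 tags) and were called in replicate 2 alone.

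PDK1, a kinase gene induced by hypoxia through HIF1, had lower-ranked best peaks than PDK2 and PDK4 in both replicates. It lies at chr2:172555373-172608669 on the plus strand. Its strongest peak lay in a CpG island in the first intron, at +567 bp (chr2:172556431-172556641) with 45 tags (32.8 to 60.2) in replicate 1 and +604 bp (chr2:172556445-172556701) with 85 tags (67.9 to 105) in replicate 2. The ranks were 2809 and 4807, at percentiles of 77.5 and 82.4. Focus ratios there, 0.609 and 0.654, were below the list medians of 0.758 and 0.755. GENCODE places starts of both PDK1 and the antisense lncRNA PDK1-AS1 within 29 bp of the centres, and the window held 22 and 21 CpG dinucleotides.

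The other shared PDK1 peak was distal, at +84491 bp and +84581 bp, with 27 tags (17.8 to 39.3) and 45 tags (32.8 to 60.2). It was among the weaker peaks of both lists (percentiles of 36.9 and 44.4) but held an exact TGTTTAC. Replicate 2 alone had PDK1 peaks at -35957, -29498 and +37862 bp, with 35, 52 and 56 tags. The upstream pair fell in LTR elements of the ERVK class in the first intron of PDK1-AS1, and each held an exact heptamer.

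**Figure D2:**
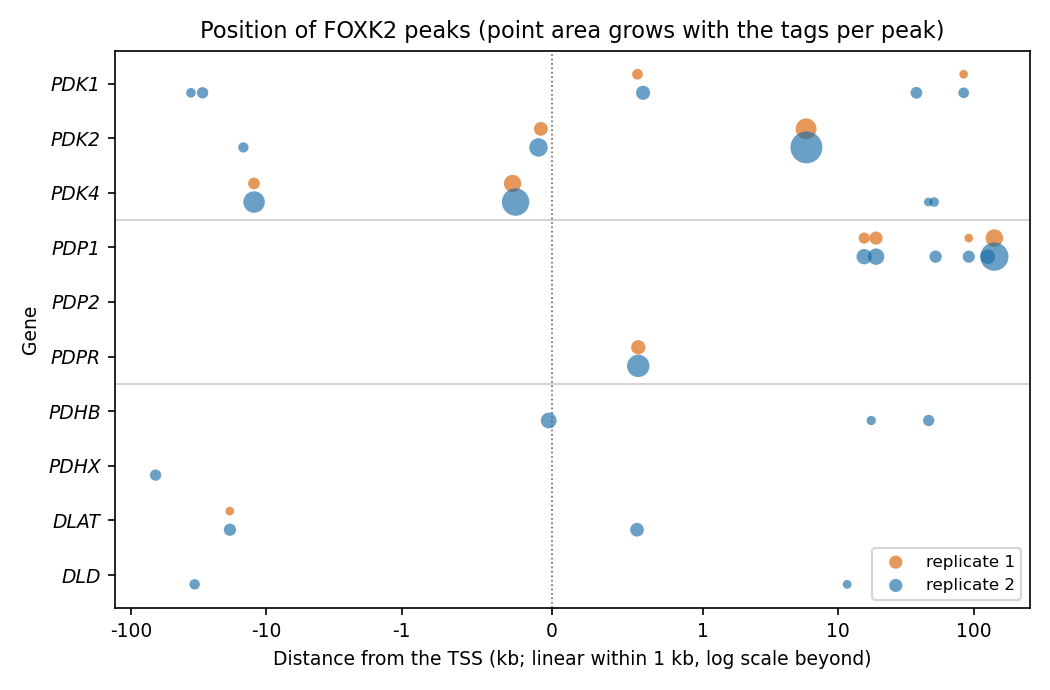
Distance of each FOXK2 peak from the TSS of its gene (linear within 1 kb and logarithmic beyond), with point area growing with the tags of the peak. The largest points of PDK4 and PDPR lie within 1 kb of the TSS, a further large PDK4 point lies at -12294 bp, the largest of PDK2 lies inside the gene at +5836 bp in replicate 2, and the PDP1 point nearest to its TSS lies at +15579 bp.

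PDP1, the calcium-stimulated catalytic phosphatase, had the most peaks of the group, 4 in replicate 1 and 6 in replicate 2, and all were intergenic, downstream of its TSS. The farthest was the strongest, at +142420 bp with 133 tags (111 to 158) in replicate 1 and +142429 bp with 360 tags (324 to 399) in replicate 2. It ranked 148 and 122, close to the PDK4 promoter peak in both lists, and lay in an LTR element, MER4D. It held no exact TGTTTAC, but a TGTTTAT 8 bp and 17 bp from the centres and an AP-1 heptamer, TGACTCA, 26 bp and 17 bp from them. TGACTCA on either strand occurred in 16.4% and 16.6% of all peak windows. The GENCODE start nearest to this farthest peak was that of a lncRNA, 44851 bp and 44842 bp from the centres. Its link to PDP1 rests on the deposited assignment alone.

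Nearer to PDP1, shared peaks at +15579 bp and +19035 bp (replicate 1) held 50 and 72 tags, and their partners held 101 and 116 tags. The last shared peak, at +92219 and +92220 bp, was weaker, with 26 and 60 tags. It lay in an L1PA4 LINE element, where 53.1% and 52.4% of the 50-bp stretches of the peak matched elsewhere in the genome exactly. Replicate 2 alone had peaks, at +52477 bp (62 tags) and +127452 bp (92 tags).

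Inside the PDP1 gene as GENCODE draws it, each replicate had a further pair of peaks, which the deposited annotation gave to the microRNA gene MIR378D2. The stronger had 43 and 92 tags, at percentiles of 74.9 and 85.1, and both peaks of replicate 1 were overlapped in replicate 2. PDP1 lies on chromosome 8, whose peaks had higher scores than others, with median percentiles of 76.3 and 74.9 against 50.7 and 49.3 elsewhere. Among chromosome 8 peaks alone, the strongest PDP1 peak stood at percentiles of 97.5 and 99.1, and its neighbor at +19035 and +19081 bp at 85.2 and 81.0. The part of the chromosome in the ranks of PDP1 was not tested.

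PDPR, the regulatory subunit that restrains the phosphatase, had 1 peak in each replicate, with centres at the same base. The peak covered chr16:70114093-70114303 in replicate 1 with 86 tags (68.8 to 106), and chr16:70114070-70114326 in replicate 2 with 223 tags (195 to 254). It ranked 483 and 426 and had the highest focus ratio of the replicate 2 peaks described here, 0.976. The deposited annotation placed it in the 5' UTR of exon 1, while its centre lay 134 bp before the PDPR gene of GENCODE. The window was the most CpG-dense of the group with 27 CpG dinucleotides in both replicates, and held no heptamer of the forkhead core.

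The PDPR value carries an uncertainty of mapping. Of the 50-bp stretches in the peak, 37.7% in replicate 1 and 49.0% in replicate 2 matched a second place on the same chromosome exactly, at chr16:74368179-74368430. Both lists held a peak there too, assigned to LOC283922, with 190 tags (rank 51) in replicate 1 and 502 tags (rank 43) in replicate 2. The copy thus scored above PDPR itself in both replicates. How reads from the identical stretches were divided between the places was not tested.

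PDP2, the phosphatase that does not depend on calcium, had no peak in either list. The peaks nearest to its GENCODE gene start lay 26801 bp and 26739 bp downstream, were assigned to CDH16 and stood at percentiles of 44.2 and 67.5. The lists held no peak below 16 and 21 tags, so weaker signal at PDP2 was not detectable.

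The 4 genes for subunits of the complex itself had 1 peak in replicate 1 and 8 in replicate 2. In replicate 1 that peak stood at a percentile of 36.9, against a median of 91.3 for the 6 kinase peaks. In replicate 2 the median of the 8 was 53.6, against 57.6 for the 12 kinase peaks, and 5 of the 8 and 7 of the 12 lay above the median of the list. Among replicate 2 peaks shared with replicate 1, the single subunit peak stood at 65.7 and the 6 kinase peaks had a median of 96.9. A single peak cannot stand for the subunit genes, and no such value is given here for all shared peaks. The subunit counts follow the deposited assignment, which leaves out replicate 2 peaks inside PDHX at percentiles of 70.3 and 93.9. DLAT, which encodes the E2 acetyltransferase, was the only one with a peak in both replicates. That peak lay at -18583 bp (chr11:112006126-112006336) and -18540 bp (chr11:112006146-112006402), with 27 tags (17.8 to 39.3) and 61 tags (46.7 to 78.4), in an L1PA6 element in intron 17 of DIXDC1. At its own start DLAT had a peak in replicate 2 alone, at +564 bp from the deposited TSS and 30 bp from a GENCODE start, with 78 tags (61.7 to 97.3).

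PDHB, the beta subunit of the E1 component, had the strongest subunit peak by the deposited assignment, at the promoter in replicate 2 alone. It lay at -23 bp (chr3:58433747-58434003) and held 107 tags (87.7 to 129), rank 2852 and percentile 89.5, in a window with 73.6% GC and no forkhead core heptamer. The nearest replicate 1 peak was 100939 bp away from the PDHB start and was assigned to PXK. The other PDHB peaks of replicate 2, with 32 and 51 tags, lay in introns of PXK.

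PDHX, which anchors the E3 component in the complex, had a peak by the deposited assignment only at -65610 bp in replicate 2, with 51 tags (38.0 to 67.1). By position, however, replicate 2 held a peak inside PDHX 767 bp from its GENCODE start, with 66 tags at a percentile of 70.3, which the files gave to the neighbor APIP. A stronger one lay 61479 bp inside PDHX, with 131 tags, rank 1670 and an exact TGTTTAC, and was given to MIR1343. Neither had a partner in replicate 1. DLD, the E3 dehydrogenase that the PDH complex shares with other complexes, had weak peaks in replicate 2, at -33766 bp with 42 tags and at +11663 bp with 28 tags.

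Ordered by the mean percentile of the best peak in each replicate, PDK2 came first at 99.7 ± 0.127 (SD, n = 2), before PDP1 at 99.2 ± 0.523, PDK4 at 99.1 ± 0.509 and PDPR at 97.3 ± 1.63. PDK1 followed at 79.9 ± 3.47 and DLAT at 57.8 ± 29.7. The order was the same within each replicate. The steps from PDK2 to PDP1, from PDP1 to PDK4 and from PDK1 to DLAT were no larger than the larger SD of the pair, while those from PDK4 to PDPR and from PDPR to PDK1 were, with only 2 values each. These SDs include the shift between the lists, as 88.9% of all shared pairs stood at a higher percentile in replicate 2. They do not measure replicate noise alone. The place of PDP1 rests on its peak at +142420 and +142429 bp, and its next best peak, at +19035 and +19081 bp, stood at 93.5 and 91.3, below PDPR in both replicates. For DLAT the best peak was a different one in each replicate.

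All 12 replicate 1 peaks of the group were overlapped by a replicate 2 peak (exact 95% interval 73.5% to 100%), against 74.9% of all replicate 1 peaks. Of the 27 replicate 2 peaks, 12 were overlapped (44.4%, 25.5% to 64.7%), against 34.2% of all. The median percentile was 93.5 for the overlapped replicate 2 peaks of the group and 53.6 for the 15 that stood alone. The same medians over all peaks are not given here, so this difference cannot be called particular to the group. Of those 15, 6 belonged to kinase genes, 2 to PDP1 and 7 to subunit genes. Tag ratios of the 12 pairs had a median of 2.29, near the 2.19 of all pairs, and 11 of the 12 stood at a higher percentile in replicate 2, as did 88.9% of all pairs.

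**Figure D3:**
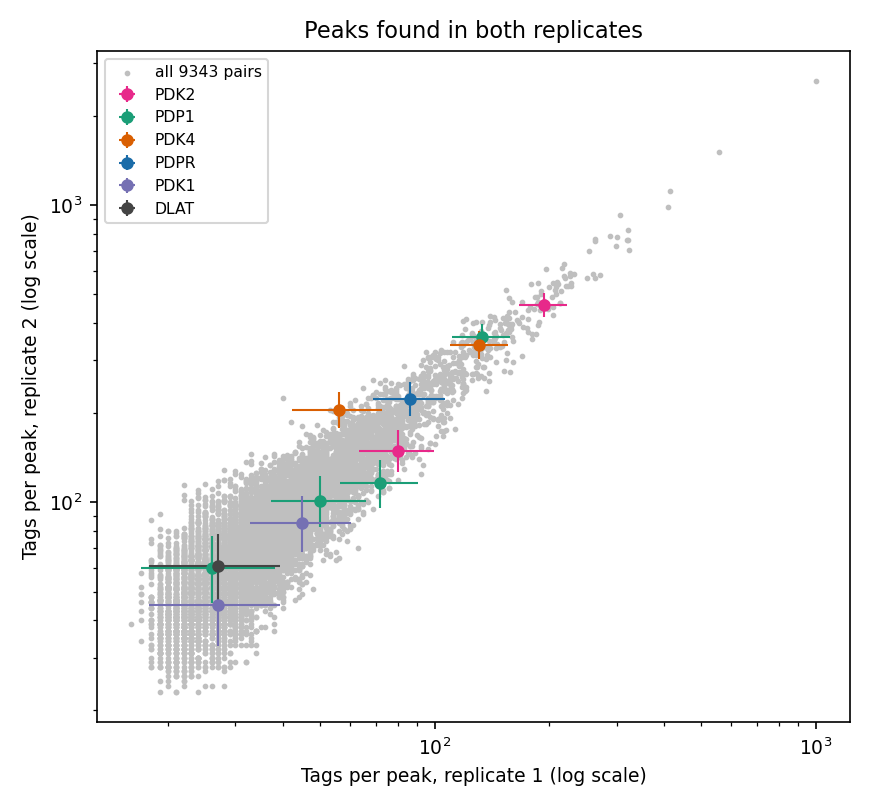
Tags per peak in replicate 1 and replicate 2 (both axes logarithmic) for the 12 shared peaks of the group in color, with exact 95% Poisson intervals, over all 9343 shared pairs in grey. The colored points follow the grey cloud, and the weaker PDK4 peak, with 56 and 205 tags, lies at its upper edge.

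Of the replicate 1 peaks, 5 of 12 held an exact TGTTTAC no more than 100 bp from the centre, on either strand (41.7%, exact 95% interval 15.2% to 72.3%), and so did 11 of 27 in replicate 2 (40.7%, 22.4% to 61.2%). The shares in all peaks were 30.5% and 28.2%, inside these intervals. The forkhead core was searched on both strands as 8 heptamers. Besides the exact site these included TGTTTAT together with TGTTTGC and also TGTTTGT. The remaining forms, with TA in place of TG at the start, were TATTTAC together with TATTTAT, and TATTTGC together with TATTTGT. It was in 8 and 20 of the peaks, against 57.9% and 56.9% of all peaks. The variant TGTTGAC, outside that core, was in 8.31% and 7.73% of all peaks.

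Not every promoter peak held the exact site. Peaks within 1 kb of any GENCODE transcript start numbered 6 of 12 in replicate 1 and 11 of 27 in replicate 2. The shares of all peaks, 34.1% and 29.5%, lay inside the exact intervals for these counts (21.1% to 78.9% and 22.4% to 61.2%). Of the member peaks near a start, 2 and 4 held the exact heptamer. The PDK4 promoter peak held it 3 bp and 17 bp from the centres, whereas the promoter peaks of PDK2, PDPR, PDHB and DLAT held none. In all peaks, the heptamer was in 18.8% and 16.2% of those near a start and in 36.6% and 33.2% of the others. The RefSeq promoters of 9 of the 10 genes, 15 windows mostly before a start (median length of all windows 300 bases), held no TGTTTAC, which occurred in 3.42% of all 35116 windows on either strand. The PDK4 site lies upstream of that window.

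**Figure D4:**
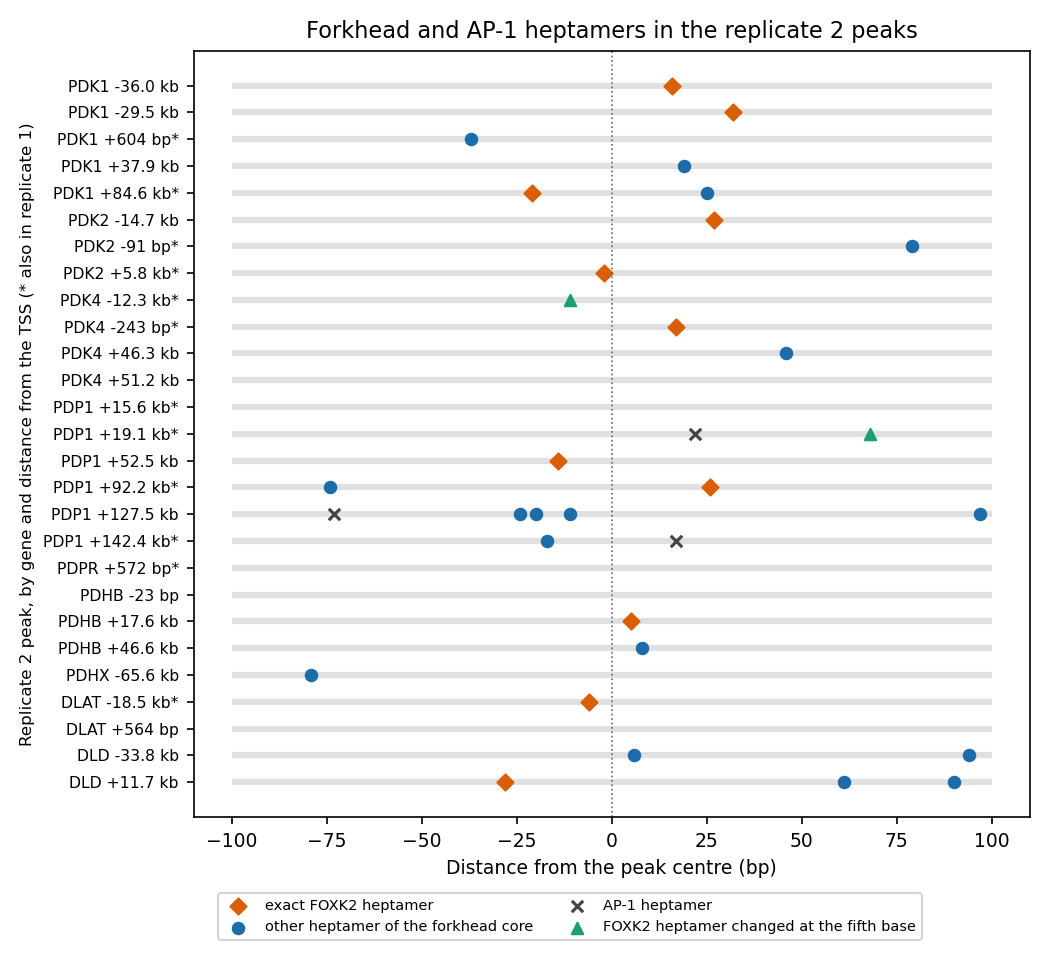
Position of forkhead and AP-1 heptamers within 100 bp of the centre of each replicate 2 peak (bp, plus strand of the genome to the right), by gene and distance from the TSS. Exact FOXK2 heptamers appear in 11 of the 27 peaks, and none appears at the starts of PDPR, PDHB and DLAT.

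Repeats made up part of the distal peaks. By the deposited annotation, 5 of 27 replicate 2 peaks lay in LTR elements (6.38% of all peaks did) and 3 in LINE elements (9.39% of all). The LINE peaks were those of DLAT at -18540 bp and PDP1 at +52477 bp and +92220 bp, and each held an exact TGTTTAC. The LTR peaks were 2 each of PDK1 and PDP1 and 1 of PDHB. In replicate 1, 2 of 12 peaks lay in LTR elements and 2 in LINE elements, against 5.56% and 8.37% of all peaks.

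Other genes of pyruvate metabolism were read from lists of the pathway, and counts of genes with a peak in both replicates stand against the 28.6% of all protein-coding genes. The lists are short, and no count was tested. Of 8 genes that supply pyruvate or use it otherwise, only PKM, a pyruvate kinase, had a peak in both replicates, and its peaks did not overlap. LDHA and LDHB, the subunits of lactate dehydrogenase, each had 1 peak in replicate 2 alone, at percentiles of 50.7 and 21.1, and the mitochondrial pyruvate carrier gene MPC1 had none. Of 7 genes listed for lipoylation, the attachment of the cofactor that DLAT carries, 3 had peaks in both replicates, and those of BOLA3 did not overlap. LIPT1 had an overlapping promoter peak at +7 bp and +56 bp, at percentiles of 82.9 and 91.7.

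The oxoglutarate dehydrogenase complex, a sister of PDH in the TCA cycle, had promoter peaks at its own subunit genes. OGDH, its E1 component, had a peak at +54 bp and +11 bp, at percentiles of 92.2 and 97.7. DLST, its E2 component, had one at -93 bp and -7 bp, at 95.5 and 96.8. Neither held TGTTTAC. Of the 9 sister complex genes, 3 had a peak in both replicates (OGDH, DLST and BCKDHB). BCKDHA and BCKDK, of branched-chain keto acid oxidation, had none. BCKDHB, of the same pathway, had 4 peaks in replicate 1, all overlapped among its 9 peaks in replicate 2. Its best percentiles were 65.1 and 82.8. Among 4 thiamine genes 3 had a peak in both replicates, with at least 1 overlapping peak each. Of the deacylases, SIRT4 had a weak overlapping promoter peak at percentiles of 29.0 and 49.3, and SIRT3 had no peak.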

How the data were processed

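The analysis started from the peak list of each FOXK2 ChIP-seq sample of OVCAR5 cells. The authors mapped single-end reads to hg38 with Bowtie2 2.2.6 and called peaks per replicate with HOMER 4.10, as the methods and the submitters' processing notes state. The HOMER settings behind these lists, with their threshold and any use of the input, were not given in the sources used here. The authors separately tested enrichment over input per peak, and those statistics were not used. Each deposited list gives a peak score scaled to its library. It also gives the deposited focus ratio, a fraction of tags, and a signed distance to the nearest TSS. No file holds reads, so depth was read only from the score step.

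Genes were taken from the deposited nearest-TSS assignment. The members and gene lists were chosen with earlier results of these data known, so no enrichment test was run. All 10 members are named. Of the other pathway genes, those with an overlapping peak within 1 kb of the TSS were to be given with values, except for an item not reported here, and others named were chosen after their values were seen. Peaks overlapping by at least 1 bp counted as shared. Motifs were searched within 100 bp of the centre. Shares carry exact binomial intervals at 95%, which cover counting error only. GENCODE release 44 gave transcript starts, and RefSeq (GRCh38.p14) gave promoter windows. All peak coordinates fell within the hg38 reference. Stretches of 50 bp were matched to chromosomes 1 to 22, X and Y. The overlap, motif and score-step procedures were tested on simulated data. Scripts ran in Python 3.11.15 with pandas 2.3.3, numpy 2.4.6, pysam 0.24.0, scipy 1.17.1 and matplotlib 3.10.9.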

Additional observations from a re-analysis of the deposited data

How the results depend on the processing

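No paired analysis was possible because no peak list was used for the inputs, the only samples that share replicate numbers with FOXK2. Of 42 alternative counts, 33 stayed within 1.5 times the main count. Peaks in both replicates were found for 6 genes, and for 4 to 6 under the settings that kept both replicates. Within 10 kb of the TSS, DLAT and PDP1 dropped out, and without peaks in repeated sequence, an alternative chosen after seeing the data, PDPR did. Leaving out each replicate gave from 6 to 9 genes. Within 10 kb of the TSS, 5 replicate 1 peaks and 7 replicate 2 peaks remained, of 12 and 27, and with lists of equal length 16 replicate 2 peaks did. With the forkhead core in place of TGTTTAC, 8 and 20 peaks held a site, of 12 and 27. Counts near a start depended on the window. Within 100 bp they were 3 and 4 peaks, and by the deposited promoter class 2 and 3 peaks, in place of 6 and 11. With lists of equal length, the mean best percentile of PDK1 moved from 79.9 to 69.5. The score threshold of each list limits what could be seen, and 2 replicates give a poor estimate of the spread between them.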

Other observations

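Genes for transcription factors known to act on the PDK genes also carried FOXK2 peaks. Of 9 such genes listed, 7 had a peak in both replicates, against 28.6% of all protein-coding genes, and each of the 7 had at least 1 overlapping peak. An overlapping peak within 1 kb of the TSS was found for 2 of the 9, HIF1A and FOXO1, and not for FOXK1 or FOXO3. Among all protein-coding genes, 11.5% had a peak within 1 kb of the TSS in both replicates, overlapping or not. The list is short, was chosen with earlier results known, and its count was not tested. FOXK1, the closest relative of FOXK2, had the strongest, with best percentiles of 99.7 and 99.9, and FOXO3, which activates PDK4 in fasting, reached 98.7 and 99.2. HIF1A, the hypoxia factor upstream of PDK1, had a promoter peak at -141 bp and -166 bp, at percentiles of 67.1 and 81.5, and FOXO1 had one at -226 bp and -370 bp, at 62.9 and 78.2. PPARGC1A, a coactivator of mitochondrial genes, had 6 peaks in replicate 1, all overlapped among its 15 peaks in replicate 2. The peaks of PPARD and of FOXK2 itself had best percentiles of 32.7 and 71.3 for PPARD and 29.0 and 63.6 for FOXK2 in replicates 1 and 2, and PPARA and ESRRA had no peak in either list.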
